A study of Mus musculus with 6 samples.

Results

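Mitochondrial ribosomal protein genes, taken as every gene whose symbol begins with Mrpl or Mrps followed by a digit, numbered 77 of the 13642 genes in the deposited table, 48 of the large subunit (Mrpl) and 29 of the small subunit (Mrps) by symbol. They were measured by RNA sequencing in cells labelled long-lived plasma cells, antibody-secreting cells of the bone marrow, sorted from C57BL/6J mice by high CD138, with cells bearing B220, IgD, TCRb, TCRgd, CD11b or Gr-1 left out. There were 3 libraries from old mice (17 to 19 months, all labelled male, supplied by the National Institute on Aging) and 3 from young mice (2 to 3 months, all labelled female, from the Jackson Laboratory or UCLA's laboratory animal division), so age, sex and supplier cannot be told apart. The labels name no mutation or treatment for either group and do not say whether a library came from 1 animal or from a pool, so the p-values rest on the spread among these 6 libraries, part of which may be technical. By its title, the study concerned myeloid skewing in ageing marrow and the accumulation of these cells.

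The mitochondrial ribosome translates the messenger RNAs encoded by mitochondrial DNA, which specify core subunits of the respiratory chain and of ATP synthase. Its RNAs come from mitochondrial DNA, whereas all of its proteins are encoded in the nucleus, made in the cytosol and imported. Part of them descend from bacterial ribosomal proteins and part are found in mitochondria alone. Plasma cells use mitochondrial metabolism to sustain antibody secretion. The symbols do not always give the place of a protein: Mrps18a and Mrps30 encode proteins that sit in the large subunit, and Mrps36 encodes a component of the oxoglutarate dehydrogenase complex.

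Values are FPKM, fragments scaled to gene length and library size, as deposited. Judged by the smallest values of the table, a single fragment per kb equalled 0.0361 to 0.0376 FPKM in the old libraries and 0.04 to 0.0447 in the young ones, which puts about 26.6 M to 27.7 M fragments behind the old libraries and 22.4 M to 25.0 M behind the young ones. These intervals do not overlap, and genes above 0 did not overlap either, at 11310 to 12049 in old libraries and 8934 to 10664 in young ones. The sorted identity was checked on 10 plasma cell genes (among them Jchain, Xbp1, Irf4, Prdm1 and Sdc1), whose summed level was 9110 to 23040 FPKM in old and 20089 to 23335 in young libraries, the lowest being old replicate 3. Of 7 monocyte and macrophage marker genes in the table, whose sum was 180 to 616 FPKM in old and 35.4 to 155 in young libraries, 4 could be tested and all 4 of these had higher old means on the log2 scale. The sum was mostly Lyz2, which is also expressed by granulocytes, while Fcgr1 was at 0, 0.0546 and 0 FPKM and Adgre1 at 0.252, 0 and 2.75 FPKM in old libraries, and both were listed at 0 in every young library. Genes of cell division summed to 222, 248 and 850 FPKM in old and 486, 279 and 372 in young libraries, with Mki67 at 90.5 to 280 FPKM in old and 116 to 171 in young libraries. Old replicate 3 was also highest in erythroid genes, at 794 FPKM against at most 292 in any other library. Neutrophil genes summed to 259, 1245 and 653 FPKM in old and 427, 562 and 500 in young libraries. Of 9 tested, 6 were higher and 3 lower in old libraries. Among them Elane was at 19.7, 19.2 and 220 FPKM in old and 10.2, 0.0475 and 0.0536 in young libraries, without overlap. Mpo was at 264 FPKM in old replicate 3 and at most 31.6 in any other library. Eosinophil and basophil genes, mostly Prg2, summed to 896, 1149 and 1611 FPKM in old and 1256, 1371 and 1311 in young libraries. Of 5 tested, 3 were higher and 2, Prg2 among them, lower in old libraries. Mcpt8 and Prss34 were at 265 and 274 FPKM in old replicate 3, and at most 27.6 and 41.8 in any other library. The part of these genes in the results below was not tested.

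The promoter regions of the members most different between the groups are shown first, since the nuclear factor NRF1, factors of the ETS family and YY1 are known regulators of genes for mitochondrial proteins. Of the 7 members with an unadjusted p under 0.05 described further on, 4 have 150 bases upstream of the RefSeq start that hold at most 18 annotated exon bases. They are Mrps12 (chr7:28741822-28741971, minus strand), Mrpl42 (chr10:95501950-95502099, minus strand), Mrpl20 (chr4:155802728-155802877, plus strand) and Mrpl9 (chr3:94443186-94443335, plus strand), all RefSeq sequence on GRCm38.p6. Each runs 5′ to 3′ up to the base before the start, and capitals mark the letters GCGCANGC of the NRF1 motif on either strand.
Mrps12: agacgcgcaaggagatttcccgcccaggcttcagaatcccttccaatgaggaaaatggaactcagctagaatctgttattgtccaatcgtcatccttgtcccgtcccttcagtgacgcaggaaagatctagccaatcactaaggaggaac
Mrpl42: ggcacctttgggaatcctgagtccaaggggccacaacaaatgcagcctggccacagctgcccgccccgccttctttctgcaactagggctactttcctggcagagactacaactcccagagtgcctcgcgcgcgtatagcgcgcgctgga
Mrpl20: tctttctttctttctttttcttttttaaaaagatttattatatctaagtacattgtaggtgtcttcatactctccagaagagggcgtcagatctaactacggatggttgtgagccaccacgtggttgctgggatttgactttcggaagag
Mrpl9: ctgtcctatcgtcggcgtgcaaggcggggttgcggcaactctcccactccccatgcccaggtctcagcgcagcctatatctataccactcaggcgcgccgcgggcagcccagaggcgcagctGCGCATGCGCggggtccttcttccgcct

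Mrpl9 alone among these 4 stretches held any of the letters searched, as an overlapping match on each strand between 28 and 19 bases before its start. RefSeq promoter entries, which also hold bases after the start, were found for 68 of the 77 members and for 10442 genes of the table, and each motif was searched on both strands in their 250 bases before the start. The NRF1 letters GCGCANGC occurred in 19 of 68 members, or 27.9%, against 17.6% of the table's genes, and in 35.7% of large subunit genes and 15.4% of small subunit genes. ETS letters CCGGAAGT occurred in 14.7% of members against 6.27%, and YY1 letters AAGATGGC in 5.88% against 2.33%. Members with YY1 letters in this wider window included Mrps12 of the 4 above. They also included Mrpl36, of smallest p, whose stretch is not shown because it holds 149 annotated exon bases. All of these are matches of letters in a window and not binding sites.

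Over all members the summed level was close between the groups while the middle of the distribution was not. The 77 genes together took 0.421%, 0.482% and 0.516% of the summed FPKM in the old libraries, against 0.412%, 0.438% and 0.481% in the young ones (0.473% ± 0.0481 and 0.444% ± 0.0348, SD, n = 3 each), and the groups overlapped. The median member was at 9.75, 11.5 and 13.6 FPKM in old libraries, against 8.92, 5.38 and 4.12 FPKM in young ones, with no overlap. Over all 10687 genes averaging 1 FPKM or more the median was 8.31, 8.87 and 10.3 FPKM in old libraries. In young ones it was 8.86, 7.53 and 6.68 FPKM, so it too was lowest in young replicates 2 and 3, though the groups overlapped. The young sums were carried by fewer genes in replicates 2 and 3: the smallest number of members that make up 50% of the sum was 11, 12 and 13 in old libraries and 12, 8 and 9 in young ones. In bulk samples fewer cells of a type and less RNA per cell cannot be told apart.

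**Figure D1:**
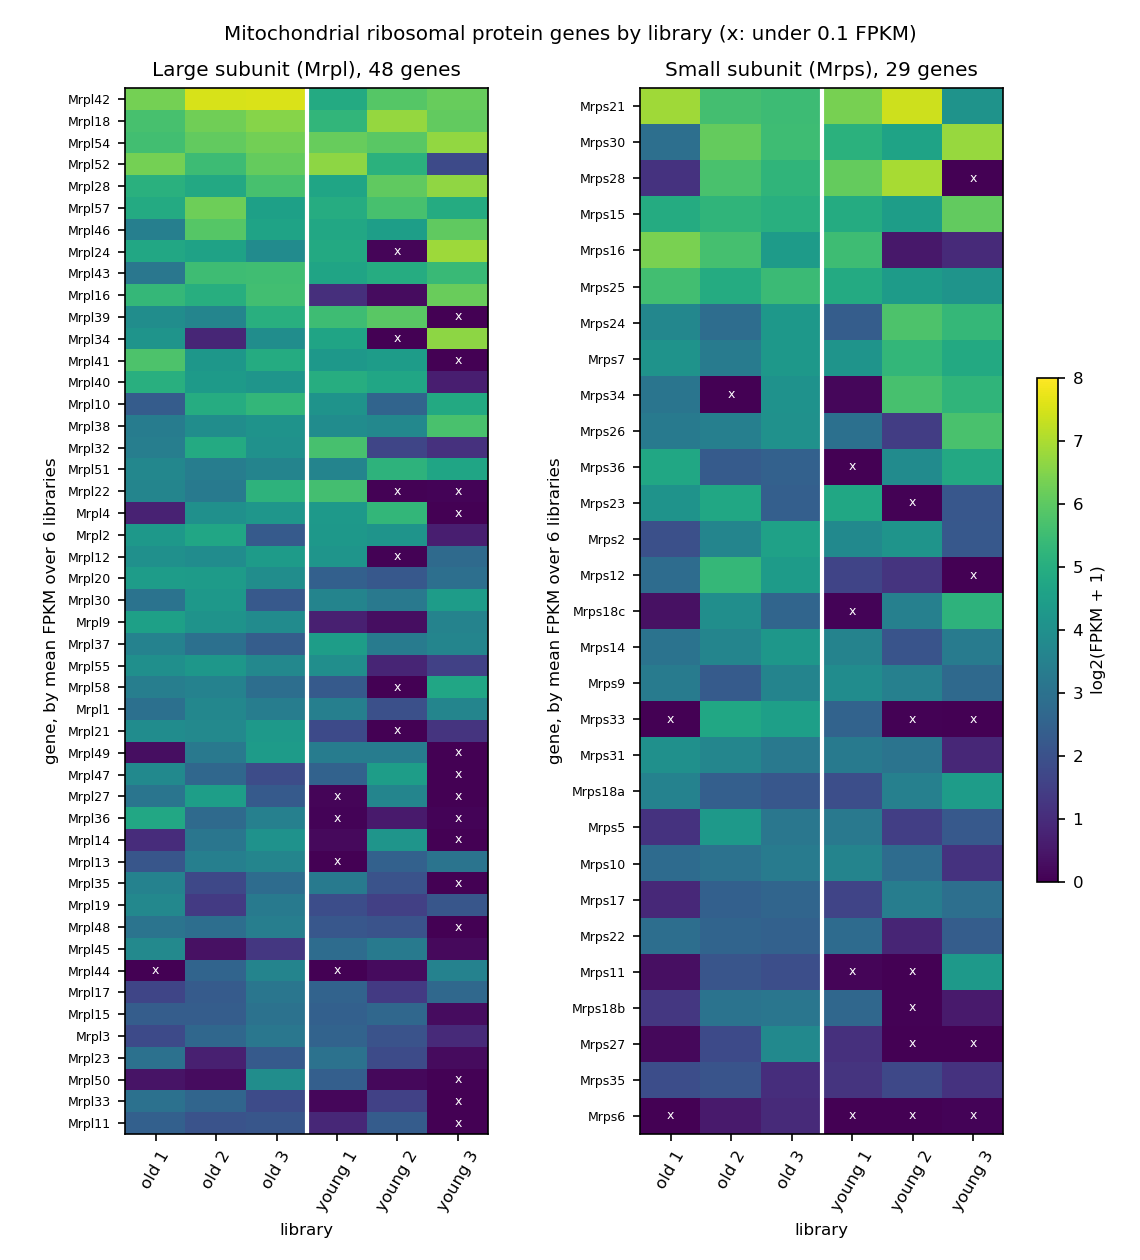
Each row is a gene and each column a library (old left, young right), coloured by log2(FPKM + 1), for 48 large subunit genes (left) and 29 small subunit genes (right), ordered by mean FPKM. Crosses mark values under 0.1 FPKM, of which the old libraries hold 4 and the young ones 39.

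The most abundant large subunit gene was Mrpl42, a mitochondria-specific component, at 79.2, 183 and 188 FPKM in old libraries and 28.4, 58.1 and 69.0 in young ones. Mrpl18, a homologue of a bacterial protein of the large subunit, stood at 50.3, 76.2 and 92.9 FPKM in old and 37.2, 105 and 66.8 in young libraries. Mrpl54, another mitochondria-specific gene, was the steadiest of the abundant ones. It had 46.8, 66.4 and 78.3 FPKM in old and 69.0, 60.6 and 104 in young libraries, and its groups overlapped. Mrpl52 was level across the old libraries at 79.8, 43.7 and 68.3 FPKM but uneven across the young ones, at 99.0, 33.7 and 2.45.

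In the small subunit the highest mean belonged to Mrps21, a bacterial-type protein, with 116, 48 and 43.8 FPKM in old and 80.3, 168 and 16.2 in young libraries. Mrps30, which sits in the large subunit despite its symbol, had 6.56, 68.5 and 44.8 FPKM in old and 33.2, 24.1 and 107 in young libraries. Both spanned more within a group than between the group means. Mrps15, a homologue of a bacterial protein of the small subunit, was tight in the old group at 29.1, 36.5 and 31.9 FPKM, and looser in the young group at 29.5, 21 and 65.9. Mrps28, the counterpart of a bacterial small subunit protein, was at 1.25, 50.7 and 37.0 FPKM in old libraries and at 67.5 and 122 in young replicates 1 and 2, and was listed at 0 in young replicate 3.

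At the low end, Mrps6 was the one member that did not reach a mean of 1 FPKM. It was listed at 0 in old replicate 1 and was 0.478 and 0.931 FPKM in old replicates 2 and 3, and among young libraries it was above 0 in replicate 3 alone, at 0.0598. Mrps35 was low but present everywhere, at 2.69, 3.21 and 1.06 FPKM in old and 1.28, 2.36 and 1.24 in young libraries. Mrps27 was at 0.12, 2.44 and 13.0 FPKM in old libraries and at 1.16 in young replicate 1, with young replicates 2 and 3 listed at 0. The lowest large subunit genes were Mrpl50, Mrpl33 and Mrpl11, with means over the 6 libraries of 3.23, 2.75 and 2.65 FPKM. Mrpl50 was at 0.347, 0.192 and 14.3 FPKM in old and 4.41, 0.136 and 0.0219 in young libraries. Mrpl33, a very small bacterial-type protein, was at 6.9, 5.06 and 2.55 FPKM in old and 0.101, 1.9 and 0.013 in young libraries. In Mrpl33 every old library lay above every young one. Mrpl11 encodes the protein at the base of the stalk where translation factors bind. It was within 3.14 to 4.45 FPKM in old libraries and at 0.858, 4.05 and 0 in young ones.

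Large and small subunit genes did not keep a fixed balance from library to library. By symbol, the 48 large subunit genes supplied 65.3%, 66.9% and 70.7% of the summed member FPKM in old libraries and 65.4%, 56.4% and 66.3% in young ones (67.6% ± 2.77 and 62.7% ± 5.47, SD, n = 3 each), so the groups overlapped. Their mean level per gene was 17.2, 21.6 and 23.1 FPKM in old and 16.9, 15.9 and 20.7 in young libraries, beside 15.2, 17.7 and 15.9 in old and 14.8, 20.4 and 17.4 in young libraries for the small subunit. The large subunit's mean was thus the higher of the pair in all libraries except young replicate 2. Median levels showed more: the large subunit median was 11.1, 12.4 and 13.9 FPKM in old libraries and 10.5, 4.79 and 2.92 in young ones, and the small subunit median was 6.56, 9.95 and 13.0 in old and 6.75, 7.44 and 5.67 in young libraries. In young replicates 2 and 3 the large subunit median fell under the small subunit median, with ratios of 0.643 and 0.515, while the ratio was 1.06 to 1.7 in the old libraries and 1.55 in young replicate 1. When Mrps18a and Mrps30 were counted as large and Mrps36 was left out, the ratio was 0.975 to 1.7 in old and 1.1 to 1.39 in young libraries, so the inversion in young replicates 2 and 3 rested on the placement of 3 genes.

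**Figure D2:**
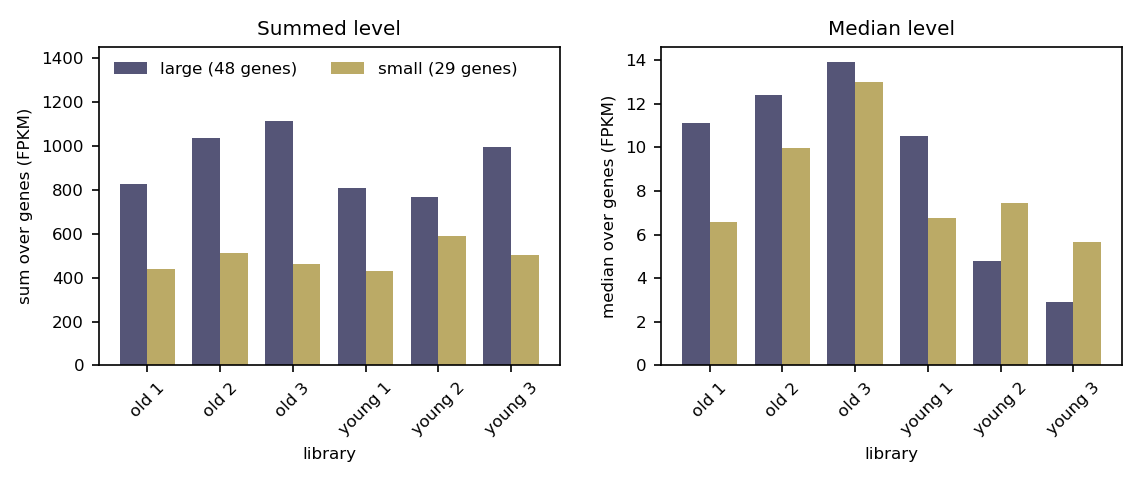
Bars give the summed FPKM (left) and the median FPKM (right) of the 48 large and 29 small subunit genes by symbol in each library. The large subunit median is 11.1 to 13.9 FPKM in old libraries and 2.92 to 10.5 in young ones.

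Values near 0 of single members lay mostly in young libraries. Taking under 0.1 FPKM as low, 3, 1 and 0 of the 77 members were low in old replicates 1 to 3, against 8, 12 and 19 in young replicates 1 to 3. Over the 3 libraries of a group this was 4 of 231 values in old (1.73%) and 39 of 231 in young (16.9%). The same limit marked 6.22% of old and 17.8% of young values over the 10687 tested genes, those averaging 1 FPKM or more. Taken over all levels, members were thus close to all tested genes in young libraries and below them in old ones. The mix of levels differed, however. Of the 1995 low old values of tested genes, 1673 lay at 1 to 5 FPKM. That level held 15 of the 77 members and 3287 of the 10687 tested genes, and shares by level are given below. Young replicate 3, which had the fewest fragments and the fewest genes above 0, held 19 of the 39 low young values, and without it 20 of 154 young values were low. Depth and sample group moved together here, and their parts were not tested.

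**Figure D3:**
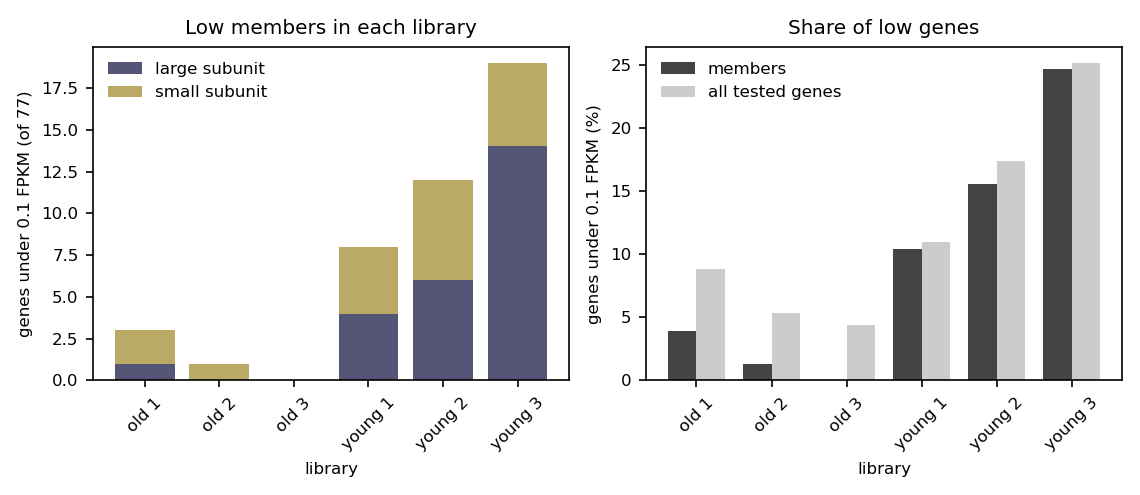
Left, the number of the 77 members under 0.1 FPKM in each library, stacked by subunit. Right, the share under 0.1 FPKM among members and among all 10687 tested genes, which runs from 0.0% to 3.9% of members in old and from 10.4% to 24.7% in young libraries.

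Both subunits held such values. Large subunit genes gave 1 low value of 144 in old and 24 of 144 in young libraries (0.694% and 16.7%), and small subunit genes gave 3 of 87 in old and 15 of 87 in young libraries (3.45% and 17.2%). Of the 24 large subunit values, 14 were in young replicate 3, while the 15 small subunit values were spread as 4, 6 and 5 over young replicates 1 to 3. Low in at least 1 library were 32 members (41.6%), beside 36.1% of all tested genes. Low values rarely coincided: 24 of the 32 members were low in a single library, and 13 of these in young replicate 3 alone. Of the 32, 28 were low in young libraries only, 1 in an old library only (Mrps34) and 3 in both groups. The remaining 45 members were never low, 32 were at 1 FPKM or more in all 6 libraries and 14 at 5 FPKM or more in all 6.

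Low values were not limited to genes of low average level. Of the 32 members low in some library, 30 reached 5 FPKM or more in another. These were 39.0% of all members, beside 31.0% of all tested genes. Among genes with a mean of 5 to 20 FPKM, 19.3% of young member values were low against 9.95% for all genes of that level, and 1.75% against 2.16% in old libraries. At 20 to 50 FPKM the young shares were 9.8% for members and 2.32% for all genes. Members had the smaller share at 1 to 5 FPKM. There 9 of 45 young member values were low against 42.7% for all genes, and 2.22% against 17.0% in old libraries. Within this bin, however, members lay higher, with a median mean of 4.11 FPKM against 2.63 for all genes, so the shares are not at like level. At 50 FPKM or more 0 member values were low, beside 0.56% of young values for all genes. At like exon length the shares at 5 to 20 FPKM were closer: 37.0% of young member values against 40.4% for all genes of up to 1500 exon bases, 21.2% against 19.8% up to 3000 bases and 9.26% against 5.43% above that.

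Mrpl22, whose protein lines the exit tunnel of the nascent chain, was at 11.5, 8.55 and 35.1 FPKM in old libraries and at 47.3, 0.0439 and 0.0495 in young ones. With its 981 exon bases, this corresponds to about 1125 fragments in young replicate 1 and about 1.1 in each of young replicates 2 and 3. Mrpl24, an RNA-binding protein of the large subunit and like Mrpl22 a bacterial homologue, was at 26.5, 23.4 and 13.6 FPKM in old and at 28.1, 0.084 and 112 in young libraries. Young replicates 2 and 3 thus held both its lowest and its highest value. Mrpl34 behaved alike in the same libraries, with 16.7, 0.83 and 14.1 FPKM in old libraries and 24.6, 0 and 98.2 in young ones.

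The opposite pattern, with 0 in young replicate 3 and high values in young replicates 1 and 2, was seen for other genes. Mrpl39, mitochondria-specific, had 14.0, 11.4 and 31.9 FPKM in old libraries and 44.3, 61.1 and 0 in young ones. Mrpl4, a tunnel-lining bacterial homologue, had 0.693, 15.2 and 17.4 FPKM in old and 18.5, 38.5 and 0 in young libraries. Mrpl41, another mitochondria-specific protein, had 53.8, 17.7 and 29 FPKM in old and 18.4, 20.3 and 0 in young libraries. In each of these 3 genes the groups overlapped. Mrps34, required in mammals for a stable small subunit, was listed at 0 in old replicate 2 and was 7.65 and 15.8 FPKM in old replicates 1 and 3. It was at 0.112, 49.8 and 36.3 FPKM in young libraries. It shares 63.4% of its exon bases with Mapk8ip3 on the opposite strand and 37.0% with Nme3 on its own strand, and use of strand in counting is not given in the sources used here.

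Mrpl12, the stalk protein that recruits translation factors and also binds mitochondrial RNA polymerase, was even across old libraries at 15.0, 13.8 and 20.2 FPKM. Across young libraries it was at 17.1, 0.0378 and 5.83. The 3 paralogues of the bacterial S18 protein differed from each other. Mrps18a was at 10.6, 4.41 and 3.52 FPKM in old and 2.81, 10.1 and 20.5 in young libraries, and never low. Mrps18b was at 1.46, 7.35 and 7.83 FPKM in old and 5.33, 0.0294 and 0.496 in young libraries. Mrps18c was at 0.283, 14.4 and 5.13 FPKM in old and 0.0519, 10.1 and 35.3 in young libraries, low in young replicate 1 where Mrps18b was highest among young libraries. Mrps36, the dehydrogenase component, was at 26.4, 3.93 and 4.62 FPKM in old libraries and at 0, 13.5 and 27.7 in young ones.

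Mrpl46 and Mrps11 overlap at their 5′ ends on opposite strands of chromosome 7, with annotated starts 412 bases apart in GENCODE M21, and were picked for that position. Mrpl46 was at 9.85, 58.5 and 24.1 FPKM in old and 26.5, 21.3 and 64.7 in young libraries. Mrps11 was at 0.252, 3.32 and 2.75 FPKM in old and 0.0854, 0 and 19.1 in young libraries. Young replicate 3 was highest and old replicate 2 next in both genes, and Mrps11 was lower in every library. Their exons share 173 bases.

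The spread between libraries of one group was larger for members than for the table as a whole, and larger in young than in old libraries. The median within-group SD of log2(FPKM + 1) was 0.75 in old and 1.33 in young libraries over the 77 members, against 0.63 in old and 0.93 in young libraries over all tested genes. With a pseudocount of 0.1 in place of 1 the members' medians were 0.84 in old and 2.33 in young libraries. The young SD exceeded the old SD in 55 members (71.4%), beside 65.8% of all tested genes. By subunit the medians were 0.73 in old and 1.37 in young libraries for large and 0.94 in old and 1.24 in young libraries for small subunit genes. As a description of the same unevenness, Spearman's rho between libraries over the 77 members was 0.39 to 0.67 among old libraries and 0.22 to 0.43 among young ones, where all tested genes gave 0.67 to 0.77 among old and 0.60 to 0.67 among young libraries. Genes of a library share its depth and are not independent.

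Gene length moved with this spread. Members have a median of 2533 merged exon bases, against 4437 over all tested genes. At equal FPKM a shorter gene rests on fewer fragments, but the part of this in the spread was not tested. Among genes of 5 to 20 FPKM on average, the pooled within-group SD was 1.71 in 9 members and 1.94 in 241 genes of up to 1500 exon bases. It was 1.49 in 11 members and 1.5 in 845 genes of up to 3000 bases, and 0.95 in 18 members and 0.85 in 3475 genes above that. At this level members differed little from all genes of like length. At 20 to 50 FPKM the members' values were above those of genes of like length, at 1.86 against 1.54, 1.41 against 0.9 and 1.44 against 0.54, over 5, 9 and 3 members. This split by length was added after the data had been seen.

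**Figure D4:**
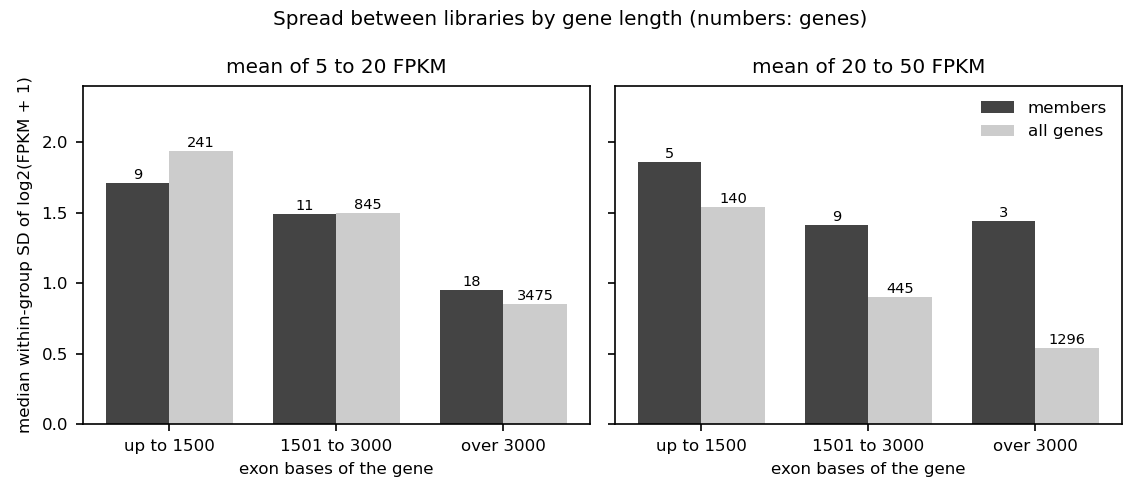
Median within-group SD of log2(FPKM + 1), pooled over the old and young groups, by exon length for genes of 5 to 20 FPKM (left) and 20 to 50 FPKM (right), with members beside all genes and the number of genes above each bar. The SD falls with exon length in members of 5 to 20 FPKM, from 1.71 to 0.95, and in all genes of both levels.

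The steadiest members above 5 FPKM were Mrpl20, Mrps25, Mrpl54 and Mrps7, with pooled within-group SDs of 0.33, 0.36, 0.39 and 0.54. Mrps7, a bacterial homologue that helps form the head of the small subunit, had 16.3, 9.02 and 18.2 FPKM in old and 16.6, 38.1 and 27.9 in young libraries. Mrps25, a mitochondria-specific small subunit protein, had 46.4, 29.6 and 42.9 FPKM in old and 28.6, 20.2 and 16.6 in young libraries, without overlap. It shares 69.8% of its exon bases with Nr2c2 on the opposite strand, which stood at 14.7, 9.58 and 7.28 FPKM in old and 7.39, 14.0 and 20 in young libraries. The least steady were Mrps28, Mrpl34, Mrps34 and Mrpl24, with SDs of 3.21, 2.73, 2.64 and 2.46.

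Old and young libraries were then compared gene by gene with limma, a linear model fitted across genes, on log2(FPKM + 1) over the 10687 genes with a mean of at least 1 FPKM, which 76 of the 77 members reached. At a Benjamini-Hochberg adjusted p under 0.05, limma called 0 members and 0 genes in all (0.0%). At an unadjusted p under 0.05, 7 members were higher in old libraries, where 4.66% of all tested genes were, and 0 members were lower, where 1.25% of all tested genes were. The 7 are 9.21% of the 76. The groups did not overlap in 9 members with old above young, or 11.8%, beside 8.78% of all tested genes, and in 0 members with old below young, beside 3.42%. Old was above young without overlap in 17 members without old replicate 1 and in 21 without young replicate 1, and below in 6 without young replicate 1. With fewer libraries in a group any gene reaches non-overlap more easily. The matching shares of all tested genes were not taken, so these counts say nothing particular to the members. No other tool was run. With 76 members the shares given above rest on few genes, and members are not replicates.

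Mrpl36, a very small protein of the large subunit with a bacterial homologue (chromosome 13, 73328513 to 73332178, plus strand, GRCm38), had the smallest p. It was at 27.0, 5.8 and 10.3 FPKM in old libraries (14.4 ± 11.2, SD, n = 3) and at 0.0506, 0.488 and 0.055 in young ones (0.198 ± 0.251, SD, n = 3). Its log2 change was 3.45 ± 0.87 (SE), and limma gave an adjusted p = 0.657. Every old library lay above every young one, and the young values correspond to about 1.4, 14.2 and 1.4 fragments. Mrpl21, also a bacterial homologue of the large subunit (chromosome 19, 3282901 to 3292837), was at 13.9, 12.7 and 18.9 FPKM in old libraries and 2.5, 0 and 1.28 in young ones, a log2 change of 3.0 ± 0.81 (SE). Mrps12, whose protein lies at the decoding centre of the small subunit (chromosome 7, 28739641 to 28741820), was at 6.12, 39.1 and 20 FPKM in old libraries and 2.15, 1.32 and 0 in young ones, a log2 change of 3.23 ± 0.91 (SE). Both had a limma adjusted p = 0.68 and groups that did not overlap.

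Mrpl42, whose values stand above, had 150 ± 61.6 FPKM in old and 51.8 ± 21 in young libraries (SD, n = 3 each). The log2 change was 1.51 ± 0.46 (SE), at an adjusted p = 0.736 in limma. Its lowest young value rests on about 2538 fragments. Mrpl20, needed in bacteria for early assembly of the large subunit, was at 20.5, 20.2 and 14.1 FPKM in old and 4.52, 3.58 and 6.59 in young libraries (18.2 ± 3.6 and 4.89 ± 1.54, SD, n = 3 each). The log2 change was 1.72 ± 0.6 (SE), at an adjusted p = 0.746 in limma. Its groups were tight and did not overlap. Mrpl9 was at 22.5, 16.2 and 13.6 FPKM in old and 0.622, 0.216 and 10.9 in young libraries, a log2 change of 2.66 ± 0.94 (SE). Mrps16, a small subunit protein with a bacterial homologue, was at 83.5, 49.0 and 20.2 FPKM in old and 44.4, 0.418 and 0.942 in young libraries, a log2 change of 3.16 ± 1.18 (SE), and here young replicate 1 lay above old replicate 3. Limma adjusted p for Mrpl9 and Mrps16 was 0.758 and 0.793. The other members whose groups did not overlap were Mrpl33, Mrps25 and Mrpl48, all higher in old libraries.

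**Figure D5:**
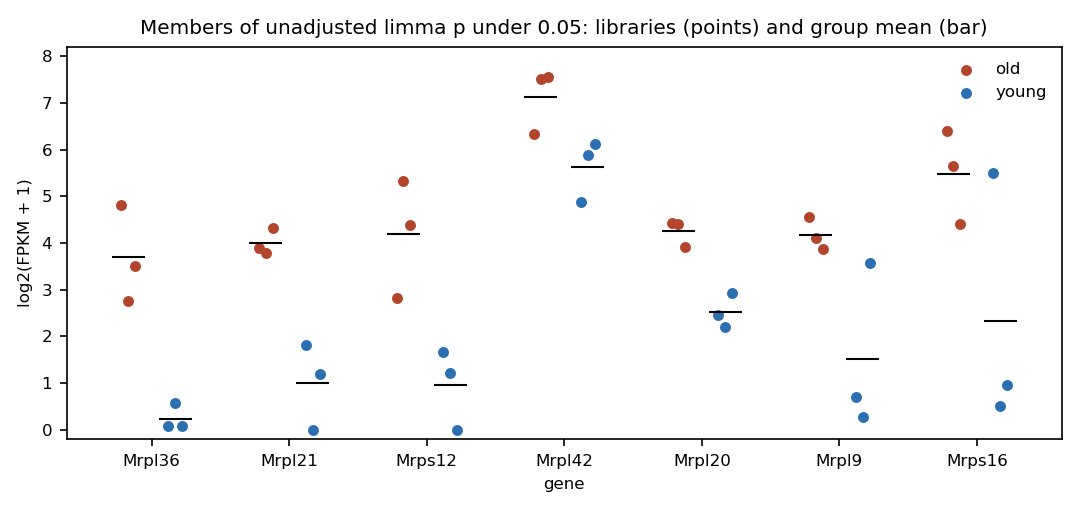
Points are the log2(FPKM + 1) values of single libraries and bars the group means, old left of young, for the 7 members of unadjusted limma p under 0.05, ordered by p. The groups overlap in Mrps16 alone, and 0 of the 7 were called at an adjusted p under 0.05.

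The median log2 change over the 76 tested members was 0.54, with 54 higher and 22 lower in old libraries, beside a median of 0.23 and 61.3% higher over all tested genes. It was 0.76 over the 48 large subunit genes, 37 of them higher, and 0.26 over 28 small subunit genes, 17 of them higher, the small subunit median turning to -0.03 after quantile normalization. Scaling moved the median of all tested genes from 0.23 as deposited to -0.01 after quantile normalization, and relative to it the members' median was 0.31 as deposited and 0.15 after quantile normalization. By level the members' medians were 0.67 over 15 genes at 1 to 5 FPKM, 0.83 over 38 at 5 to 20, 0.04 over 17 at 20 to 50 and 0.09 over 6 at 50 or more. All genes of the same levels had medians of 0.58, 0.25, 0.05 and -0.03. When old replicate 3, lowest in plasma cell genes and highest in cell division and erythroid genes, was left out, the members' median was 0.39. The subunit difference of 0.50 depended on 1 library: without young replicate 3 the large subunit median was 0.44 and the small subunit median 0.48, a difference of -0.047. Without the same library limma called 7 of all genes tested, among them 1 member, Mrpl16, a bacterial homologue near the peptidyl transferase centre, chosen here after its values were seen. Mrpl16 was at 39.5, 31.4 and 46.3 FPKM in old libraries and 1.11, 0.191 and 70.9 in young ones, with a limma adjusted p = 0.839 over all 6 libraries and an adjusted p = 0.0443 without young replicate 3 (range 0.0443 to 0.979 over the alternatives).

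Divided by naming, the 46 members counted as bacterial homologues and the 31 counted as mitochondria-specific had close levels and changes. Their median mean level was 10.5 and 12.7 FPKM, and their median log2 change was 0.57 over 45 tested and 0.41 over 31. Low values made up 0.725% in old and 18.1% in young libraries for bacterial homologues, and 3.23% in old and 15.1% in young libraries for mitochondria-specific genes. Of the 7 members with an unadjusted p under 0.05, 6 have a bacterial homologue, Mrpl42 being the exception. This division follows the current naming of mitochondrial ribosomal proteins and is not strictly one of descent. The genes counted as mitochondria-specific include Mrps18a and Mrps18b, paralogues of the bacterial S18 protein, and Mrps36, the dehydrogenase component.

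Other genes of mitochondrial translation moved unevenly. Of 5 further mitochondrial ribosome genes with unrelated symbols, 4 were higher and 1 lower in old libraries, and limma called 0. Dap3, the GTP-binding protein of the small subunit, had 4.38, 4.01 and 6.67 FPKM in old and 2.84, 0.0479 and 4.51 in young libraries. Gadd45gip1, a large subunit protein near the tunnel exit, had 8.59, 4.7 and 12.1 FPKM in old and 3.4, 0 and 1.2 in young libraries (limma adjusted p = 0.839). Chchd1 went the other way in its means, at 28.9, 44.6 and 81.3 FPKM in old and 204, 124 and 8.47 in young libraries, with overlapping groups.

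Among 23 tested assembly factors 14 were higher and 9 lower, with a median log2 change of 0.13, and among 14 translation factors 9 were higher and 5 lower, with a median of 0.24. Mrm1, which methylates the large ribosomal RNA, was at 9.58, 4.06 and 8.78 FPKM in old and 0.572, 0 and 0 in young libraries. Slirp, an RNA-binding partner of Lrpprc that stabilises mitochondrial messenger RNAs, was at 4.24, 5.22 and 5.68 FPKM in old and 0.0413, 0.0199 and 0 in young libraries. Mtif3, an initiation factor, was at 8.01, 17.9 and 19.0 FPKM in old and 0.0608, 4.4 and 1.67 in young libraries. For these 3 genes the groups did not overlap, and limma adjusted p was 0.729, 0.729 and 0.736. Guf1, a translation GTPase, had the opposite order without overlap, at 3.26, 4.6 and 6.97 FPKM in old and 9.65, 7.43 and 15.5 in young libraries. Mtrf1, a release factor homologue whose groups overlapped, was at 0.865, 3.45 and 4.39 FPKM in old and 28.9, 2.89 and 9.5 in young libraries.

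Among 16 tested mitochondrial tRNA synthetases 10 were higher and 6 lower, with a median of 0.21. Aars2, the alanyl enzyme, was at 5.47, 2.75 and 4.19 FPKM in old and 1.08, 0.373 and 0 in young libraries. Sars2, the seryl enzyme, was at 6.77, 3.67 and 6.52 FPKM in old and 7.88, 9.99 and 18.5 in young libraries, so non-overlapping groups occurred in both directions. All 9 tested genes of a list for the copying and transcription of mitochondrial DNA and the processing of its RNAs had higher old means on the log2 scale, with a median of 0.51 and 0 not overlapping. Tfam, which packages mitochondrial DNA and starts its transcription, was at 16.3, 17.1 and 19.2 FPKM in old and 8.26, 15.6 and 19.5 in young libraries. The 7 mitochondrially encoded messenger RNAs in the table, which this ribosome translates, summed to 31603, 23116 and 25484 FPKM in old and 22885, 18757 and 17929 in young libraries. These sums did not overlap. All 7 messenger RNAs had higher old means on the log2 scale, with a median of 0.41 and 2 not overlapping. They showed 0 low values, and their median within-group SD was 0.23 in old and 0.2 in young libraries. Limma called 0 genes in each of these lists.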

How the data were processed

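RNA sequencing of sorted bone marrow plasma cells gave 3 old and 3 young libraries, grouped by sample title. Per the labels' protocols, 5 ng of RNA per sample went into a stranded total-RNA template-switching kit, and paired ends were read. The authors deposited FPKM values. Tools listed in the submitters' processing notes are bcl2fastq 2.17, STAR and DESeq2, and the builds listed are GRCm38 and mm10. The counter, annotation release and use of strand are not given in the sources used here. Depth was estimated from the values of single fragments, using merged exon lengths of GENCODE M21 (GRCm38), which matched 99.9% of identifiers without version and 76.9% with it. Amplified fragments are not independent molecules.

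Tests used limma 3.58.1 (R 4.3.3) on log2(FPKM + 1) with a trended prior variance, two-sided, over genes of mean at least 1 FPKM, adjusted over all of them. This scale understates changes of low genes. The fit was tested on simulated data. Python 3.11.15, numpy 2.4.6 and pandas 2.3.3 made the tables. Low means under 0.1 FPKM. Named members were those of highest and lowest mean, smallest p, largest and smallest spread, low in one library and at least 5 FPKM in another, and a few fixed genes. Members and lists were chosen with earlier results of these data known. In the remaining marker lists limma called 0 genes, with median log2 changes of -0.35 (plasma cell), 1.03 (neutrophil), 1.05 (monocyte), -0.76 (T cell), 0.97 (NK cell), 0.07 (B cell), 0.86 (erythroid), -0.02 (plasmacytoid dendritic), 0.73 (eosinophil and basophil) and 0.19 (cell division), while 0 of 5 stromal genes could be tested. The T cell median rests on 3 of 7 genes in the table and the NK cell median on 4 of 6. The T cell genes not tested, Cd3d, Cd3e, Cd8a and Bcl11b, all had higher old means. These were 1.03, 1.22, 0.393 and 0.446 FPKM, against 0, 0, 0.00349 and 0.00165 in young libraries, so the list has no single direction. Alternatives were other pseudocounts, filters and scalings, no trend, a replicate block, another subunit placement and each library left out.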

Additional observations from a re-analysis of the deposited data

How the results depend on the processing

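The count of members called stayed at 0 under the other pseudocounts (0.1 and 0.5), filters (none, or a mean of at least 5 FPKM), median-ratio scaling, quantile normalization, no trend and the replicate block, and ranged from 0 to 1 without single libraries, where 0 to 7 of all genes tested were called (7 without young replicate 3, 1 without young replicate 1). The members' median log2 change was 0.99 with a pseudocount of 0.1 and 0.14 after quantile normalization, where all tested genes had medians of 0.36 and -0.01, and 0.39 to 0.94 without single libraries, lowest without old replicate 3 and highest without young replicate 1. The large minus small subunit difference was -0.047 to 0.74 without single libraries and 0.42 with subunits assigned by place. Members with an unadjusted p under 0.05 and higher old values numbered 4 without old replicate 2 and 13 without young replicate 1, where 4 were lower. The shares of all tested genes at these settings were not taken. All 7 named by p kept their direction in the 14 alternatives, but this was largely fixed beforehand and is no support. They were picked by p from these data, and the groups overlapped in Mrps16 alone, so leaving out a library could not turn the others. Filters, trend and block leave a gene's log2 change as it was. The cause of the differences between alternatives was not tested. Leaving out the members that share 10% or more of their exon bases with another gene, an alternative chosen after seeing the data, left 7 of 61 with an unadjusted p under 0.05 and a median of 0.63. With the replicate block 0 members were called, as without it, and their median stayed at 0.54, which a block cannot change in a balanced design. Deviations of same-numbered libraries correlated at -0.034, 0.02 and -0.004, and those of differently numbered ones at -0.043 to 0.049. Such values show no shared deviation by number, but cannot settle whether same-numbered libraries were handled together. Values of a few fragments limit what can be said of low members.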
